A study of Penicillium oxalicum with 9 samples.

Results

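The genes described here are the DNA replication, histone and cell cycle genes of the filamentous fungus Penicillium oxalicum. They were found by searching the KEGG Orthology column of the deposited gene table, which pairs each locus with the name of its functional counterpart in other organisms. The search words were DNA replication, replication factor, origin recognition, DNA polymerases alpha, delta and epsilon, histones H1 to H4, cyclin, cell division, anaphase-promoting, kinetochore, condensin and cohesin, and entries naming kinases, methyltransferases, acetyltransferases or ubiquitin were left out. Of 9786 genes in the table, 82 matched. A chance run of letters drew in ribosome recycling factor (PDE_00986) and recyclin-1 (PDE_04526), so 80 members are described. They comprise 8 histone genes, 13 genes of origin recognition and licensing, 2 fork start factors, 5 clamp loader genes, 2 genes of single-strand DNA binding, 9 DNA polymerase subunits, 3 cohesin and 3 condensin genes, 12 kinetochore genes, 11 genes of the anaphase-promoting complex, 3 cyclins and 9 other cell division genes.

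Transcript levels were measured by RNA sequencing in 9 mycelial cultures, from 3 deletion strains with biological triplicates each. The strains lacked PoflbC, PoClrC or CA according to the labels, and are called dPoflbC, dPoClrC and dCA. FlbC and ClrC are names used for fungal transcription factors, and the labels do not explain CA. Cultures were shaken at 200 rpm and 30 °C in Vogel's medium, for 22 h on 2% glucose, 2 h without carbon and 4 h on 2% cellulose. All 3 strains therefore shared the same carbon shift, and no unmutated strain was among the libraries, so each comparison sets one deletion against another. Neither flbC nor clrC appears among the gene names of the table, which left the labels without a check against the deleted genes.

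A eukaryotic cell licenses its replication origins by loading the MCM helicase onto DNA through the origin recognition complex and CDC6. At the start of DNA synthesis CDC45 joins the helicase, polymerases alpha, delta and epsilon copy the strands, and core histones are made in quantity to package the new DNA. Condensin and cohesin then shape and hold the chromosomes, the kinetochore attaches them to the spindle, and the anaphase-promoting complex with its activator CDC20 sets off chromosome separation. In filamentous fungi nuclei divide within shared hyphal compartments, so nuclear division and septation need not go together. The roles given below are those known from yeasts and other model eukaryotes, and none was tested here.

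The libraries held 6.49 to 7.76 M reads in genes, where M stands for 1000000 reads. Levels are given as scaled RPKM, the deposited RPKM (reads per kilobase of gene and per M reads) divided by the trimmed-mean (TMM) scaling factor of the library. These factors ranged from 1.20 to 1.24 for dPoflbC and from 0.988 to 1.03 for dPoClrC, and the dCA replicates had 0.906, 0.680 and 0.869. The second dCA library stood apart from its replicates, with a chi-square per gene of 183 and 167 against them, where the other 2 differed by 21.3. The median level of ribosomal protein genes named with the eukaryotic e suffix was 1030 to 1080 RPKM in dPoflbC, 446 to 597 in dPoClrC and 65.3 to 209 in dCA, with the lowest in dCA replicate 2. The summed level of both genes annotated as BrlA, the regulator that starts asexual spore formation, was 72.0 to 83.9 RPKM in dPoflbC, 11.4 to 16.4 in dPoClrC and 1.77 to 6.73 in dCA. The part of these differences in the results below was not tested.

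All 80 members were deep enough to be tested, with between 27 and 8107 reads of a member in a library. Their mean level over the 9 libraries ran from 4.11 scaled RPKM (APC subunit 1) to 2458 (histone H3), with a median of 22.1. Only 10 members reached 100 scaled RPKM. These were 7 of the 8 histone genes, the septins CDC11 and CDC12, and the small GTPase CDC42. The 7 histone genes other than the centromeric H3 variant took 0.342% to 0.375% of the reads in dPoflbC, 0.375% to 0.451% in dPoClrC and 0.275% to 0.357% in dCA. The other members together, that variant among them, took 0.473% to 0.486%, 0.407% to 0.432% and 0.237% to 0.358%.

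Most of the module differed little between the strains. The words rose and fell are kept for genes with a Benjamini-Hochberg adjusted p under 0.05 in edgeR's quasi-likelihood test, over the 8681 genes tested, and a log2 fold change of at least 1 in either direction. For dPoflbC compared with dCA, 2 members rose and 4 fell, or 7.5% of 80, while of all genes tested 11.4% rose and 15.8% fell, 27.1% in all. In dPoClrC against dCA no member rose or fell, where 5.69% of all genes rose and 7.35% fell, 13.0% in all. DESeq2 likewise called 0 members there, where it called 12.9% of all genes. Limma on RPKM called 2 members, and 9.8% to 15.8% of all genes. An unadjusted edgeR p under 0.05 was found in 18 members. The share of all genes under that rule was not counted, here or where such counts are given below. In dPoflbC against dPoClrC no member rose and 3 fell, or 3.75%, where 9.05% of all genes rose and 13.6% fell, 22.6% in all. Genes with any KEGG entry, a better matched background, were called at 23.7%, 10.8% and 17.2% in the 3 comparisons. In all, 7 members were called at least once and 73 never. The comparisons share libraries, so their calls are not independent of each other.

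Small differences were common. An adjusted p under 0.05 at any fold was reached by 23 members that were higher and 26 that were lower in dPoflbC than in dCA (61.3% in all). Over all genes 27.1% were higher and 33.8% lower by this rule, 60.9% in all. The same rule gave 7 higher and 3 lower in dPoClrC than in dCA (12.5%, against 17.9% higher and 19.9% lower over all genes, 37.8% in all), and 13 higher and 24 lower in dPoflbC than in dPoClrC (46.2%, against 27.6% and 29.5%, 57.1% in all). Such members are described below as higher or lower at a smaller fold. The libraries of the strains compared did not overlap in 53, 24 and 52 members (66.2%, 30.0% and 65.0%), where the shares over all genes were 68.2%, 50.6% and 69.6%. The median size of the log2 fold change was 0.378, 0.136 and 0.314 over the members and 0.539, 0.336 and 0.481 over all genes. The 95% interval of the log2 fold change lay within 1 of 0 in 62, 76 and 68 of the 80 members. Of the 8681 genes tested, this held in 4478, 5851 and 4851. The mean levels of the 3 strains lay within 1.5-fold of each other in 54 members and within 2-fold in 73, counts that were not made over all genes. In bulk RNA of this kind, fewer cells that express a gene and less RNA per cell cannot be told apart.

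**Figure D1:**
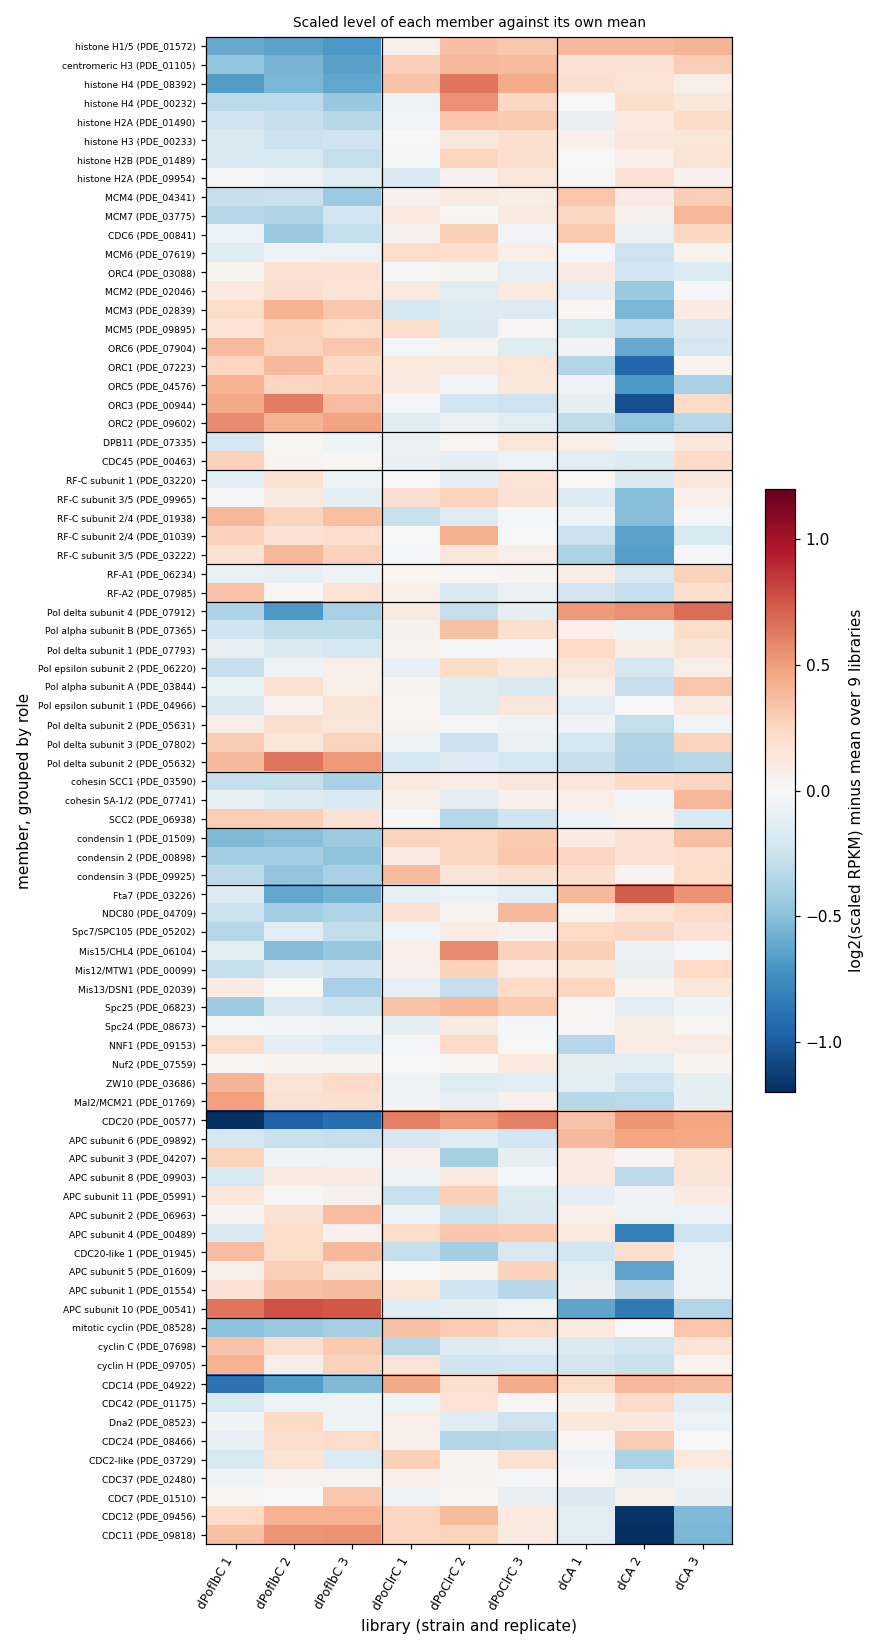
Each row is 1 of the 80 members, grouped by role, and each column is 1 of the 9 libraries. Colour gives log2 of the scaled RPKM minus the member's mean over the libraries, blue for lower and red for higher. CDC20, histone H1, the second H4 gene and CDC14 were lowest in the 3 dPoflbC libraries, and the septins CDC11 and CDC12 were lowest in dCA replicate 2.

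The direction of small differences depended on the scaling. With TMM the median log2 fold change of dPoflbC against dCA was 0.00 over the members and -0.07 over all genes. With libraries scaled by total reads alone these medians were 0.57 and 0.51. Then 16 members rose and none fell (20.0%), where 34.9% of all genes were called. By adjusted p at any fold 49 members were then higher and 5 lower, where TMM gave 23 and 26. The share of all genes by that rule was not counted without TMM. In dPoClrC against dCA the medians moved from 0.04 over the members and 0.00 over all genes to 0.34 and 0.30. Here 2 members rose and none fell (2.5%, against 15.4% of all genes called). In dPoflbC against dPoClrC the medians moved from -0.03 and 0.01 to 0.24 and 0.29, and 1 member rose and 1 fell (2.5%, against 24.9% of all genes called). The members' median thus stayed within 0.07 of that of all genes under either scaling, and differences between members of the same libraries do not depend on it.

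**Figure D2:**
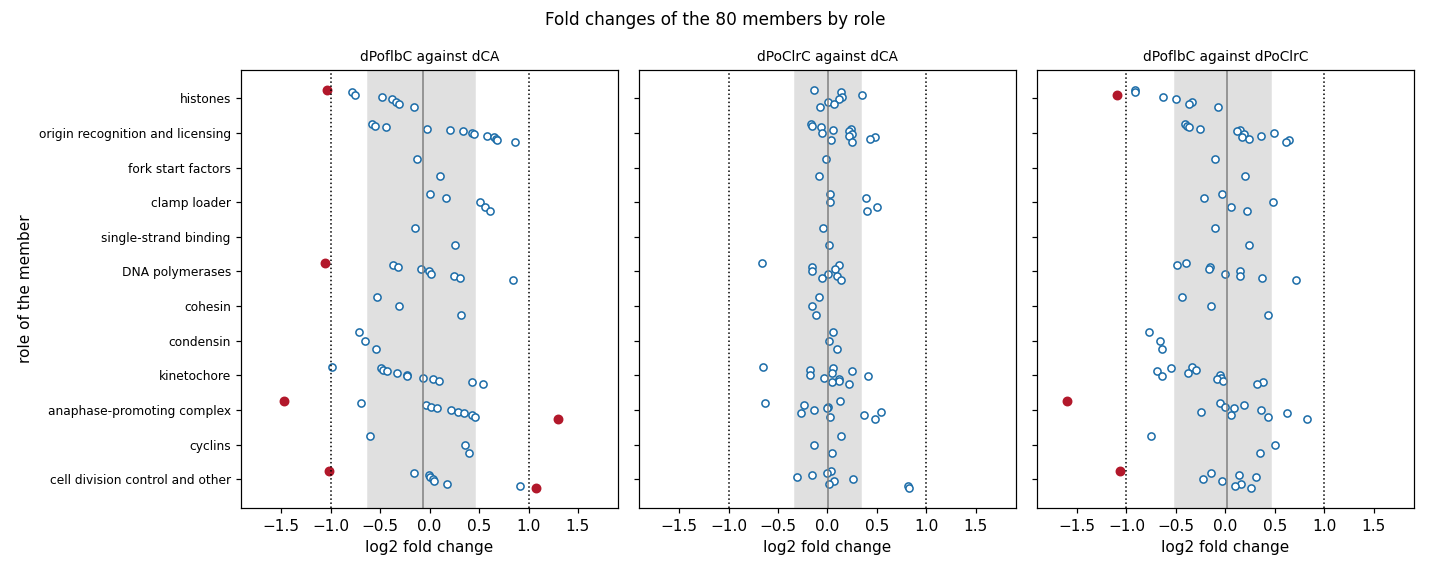
Each point is the log2 fold change of 1 member in edgeR with TMM scaling, with a panel for each comparison and a row for each role. Filled points rose or fell, dotted lines mark a log2 fold change of 1 in either direction, and the grey line and band give the median and the middle 50% of all 8681 genes tested. All 8 histones and all 3 condensin genes lie left of 0 in both panels for dPoflbC, but without TMM 5 of the histones and 1 condensin gene were above 0 against dCA.

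Histone genes were lower in dPoflbC, unevenly between them. Histones H2A, H2B, H3 and H4 form the nucleosome core, and the linker histone H1 binds where DNA enters and leaves it. All 8 genes had negative log2 fold changes in dPoflbC, with a median of -0.43 against dCA and -0.56 against dPoClrC. Against dCA, 1 fell, 5 were lower at a smaller fold and 2 did not pass the test. Against dPoClrC, 1 fell, 6 were lower at a smaller fold and 1 did not pass the test. Without TMM scaling the direction against dCA turned in 5 of the 8 (median 0.15, where all genes had 0.51), while 7 of 8 were still below 0 against dPoClrC (median -0.28, where all genes had 0.29). Between dPoClrC and dCA the median was 0.09.

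Histone H1 (PDE_01572) had 227, 221 and 215 scaled RPKM in dPoflbC replicates 1 to 3, 360, 444 and 434 in dPoClrC, and 453, 453 and 457 in dCA. The 3 dPoflbC libraries were the lowest of the 9, with a clear gap to the next. Its log2 fold change was -1.04 against dCA (SE 0.220, adjusted p = 2.06e-05, edgeR), so it fell there. It was -0.91 against dPoClrC (SE 0.202, adjusted p = 6.48e-05, edgeR), which is short of the fold required. With DESeq2 the value against dCA was -0.995, also just short, and without TMM scaling it was -0.47 and not called. Within each library, the level of H1 was 0.104 to 0.108 of that of H3 in dPoflbC, 0.148 to 0.165 in dPoClrC and 0.169 to 0.179 in dCA, a ratio that no scaling of libraries can alter.

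The H4 gene PDE_08392 had 469, 511 and 483 scaled RPKM in dPoflbC, 946, 1161 and 1017 in dPoClrC, and 851, 828 and 781 in dCA. The 3 strains did not overlap in this gene. It fell in dPoflbC against dPoClrC by 1.10 on the log2 scale (SE 0.228, adjusted p = 1.97e-05, edgeR), but by 0.82 and not called without TMM. Against dCA it was lower at a smaller fold, with -0.75 (adjusted p = 0.000193, and -0.17 without TMM), and in dPoClrC it was above dCA by 0.35 (adjusted p = 0.0307, edgeR). The other H4 gene, PDE_00232, was more abundant, with 1813, 1822 and 1653 scaled RPKM in dPoflbC, 2170, 3299 and 2685 in dPoClrC, and 2271, 2616 and 2483 in dCA. Its log2 fold changes in dPoflbC were -0.48 against dCA and -0.63 against dPoClrC (adjusted p = 0.0269 and 0.00819, edgeR). Within a library, PDE_08392 stood at 0.259 to 0.292 of PDE_00232 in dPoflbC, 0.352 to 0.436 in dPoClrC and 0.315 to 0.375 in dCA. Both genes are 312 bases long and may share reads, as may the 2 H2A genes, so the division of reads between copies is uncertain.

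The remaining core histones showed smaller differences. H3 (PDE_00233) averaged 2093 ± 66.3 scaled RPKM in dPoflbC, 2644 ± 184 in dPoClrC and 2637 ± 94.4 in dCA (SD, n = 3 each), a log2 difference of -0.34 from either (adjusted p = 0.0425, edgeR). H2B (PDE_01489) averaged 1464 ± 58.7, 1891 ± 191 and 1808 ± 99.8 scaled RPKM (SD, n = 3), with -0.31 against dCA (adjusted p = 0.0636) and -0.37 against dPoClrC (adjusted p = 0.0319, edgeR). H2A (PDE_01490) averaged 1342 ± 41.1, 1895 ± 252 and 1747 ± 195 scaled RPKM (SD, n = 3), with -0.38 and -0.50 (adjusted p = 0.0429 and 0.0143, edgeR). The locus numbers of this H2A gene and H2B are consecutive, as are those of H3 and the abundant H4 gene. In each library H2B stood at 0.960 to 1.11 times H2A. The second H2A entry, PDE_09954, was much less abundant at 155 to 202 scaled RPKM, and its log2 fold changes of -0.16 and -0.08 in dPoflbC did not pass the test.

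The centromeric H3 variant (PDE_01105), which marks the site where the kinetochore forms, was the least abundant histone. It had 15.7, 14.8 and 13.9 scaled RPKM in dPoflbC, 26.6, 28.5 and 28.4 in dPoClrC, and 24.6, 24.6 and 26.8 in dCA. All 3 dPoflbC libraries lay below the other 6. Its log2 fold change was -0.78 against dCA (SE 0.205, adjusted p = 0.00057) and -0.91 against dPoClrC (SE 0.220, adjusted p = 0.000202, edgeR), in both cases short of the fold required.

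**Figure D3:**
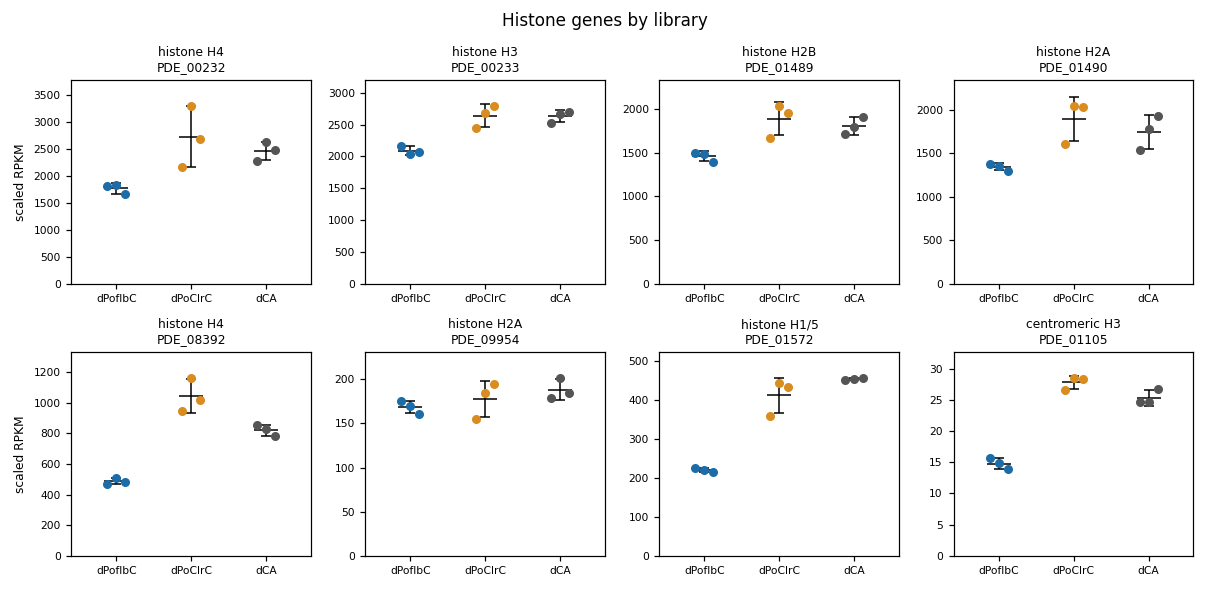
Scaled RPKM of the 8 histone genes, with a point for each library, the long bar at the strain mean and the short bars at 1 SD (n = 3). The dPoflbC libraries lie below the other 6 in every panel except that of the H2A gene PDE_09954, and the widest gaps are in H1, the H4 gene PDE_08392 and the centromeric H3.

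The origin recognition complex, which marks replication origins, had the opposite direction. All of its subunits, ORC1 to ORC6, were above 0 in dPoflbC against dCA (median log2 fold change 0.66, and 0.46 without dCA replicate 2), and 5 of 6 were higher at a smaller fold. None was called by edgeR with TMM or by DESeq2, and 5 had an unadjusted p under 0.05. Without TMM 5 were called and the median was 1.22, where 34.9% of all genes were called and their median was 0.51. Against dPoClrC the median was 0.30, with 3 higher at a smaller fold. ORC2 (PDE_09602) had 20.3, 18.4 and 19.3 scaled RPKM in dPoflbC, 12.4, 13.0 and 12.5 in dPoClrC, and 11.1, 9.96 and 10.9 in dCA. The 3 strains did not overlap, and the spread within each was small. Its log2 fold change was 0.86 against dCA (SE 0.191, adjusted p = 4.86e-05) and 0.61 against dPoClrC (SE 0.157, adjusted p = 0.000491, edgeR).

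Other ORC subunits rested more on the second dCA library. ORC3 (PDE_00944) had 18.5, 20.7 and 17.5 scaled RPKM in dPoflbC, 13.3, 11.6 and 11.4 in dPoClrC, and 12.6, 6.52 and 15.8 in dCA. Its value against dCA of 0.68 (adjusted p = 0.0307, edgeR) became 0.43 without dCA replicate 2. ORC1 (PDE_07223) had 5.60, 3.73 and 7.32 scaled RPKM in dCA against 8.42 to 9.39 in dPoflbC, and its value of 0.65 (adjusted p = 0.0151, edgeR) became 0.46. ORC2 was nearly the same without that library, at 0.84.

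The MCM helicase genes did not move as a unit. MCM2 to MCM7 encode the subunits of 1 ring-shaped complex that unwinds DNA at the fork. In dPoflbC against dCA, MCM2 (0.34), MCM3 (0.43) and MCM5 (0.45) were higher at a smaller fold, MCM4 (-0.58) and MCM7 (-0.55) were lower, and MCM6 (-0.03) did not pass the test (edgeR). MCM4 (PDE_04341) had 16.0, 16.2 and 14.3 scaled RPKM in dPoflbC, 20.1, 20.8 and 20.6 in dPoClrC, and 24.5, 20.8 and 23.8 in dCA. MCM3 (PDE_02839) had 23.8, 27.3 and 25.6 scaled RPKM in dPoflbC, 17.7, 18.3 and 18.4 in dPoClrC, and 20.7, 14.0 and 21.9 in dCA. The dPoflbC libraries were thus the lowest 3 for MCM4 and the highest 3 for MCM3. Without dCA replicate 2, the lowest library for MCM3, its log2 fold change against dCA was 0.28. Within a library the level of MCM3 was 0.689 to 0.806 of that of MCM7 in dPoflbC, 0.375 to 0.415 in dPoClrC and 0.310 to 0.402 in dCA. This ratio and the others given within libraries were chosen after the values were seen, and are given with no test. Without TMM scaling MCM4 stood at -0.01 and MCM7, whose sign turned, at 0.01, both below the 0.51 of all genes.

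CDC6 (PDE_00841), which helps to load the helicase, was low in every library at 5.94 to 10.1 scaled RPKM, and lower in dPoflbC than in dCA at a smaller fold (-0.44, adjusted p = 0.0354, edgeR). Of the fork start factors, CDC45 (PDE_00463) differed by 0.11 and DPB11 (PDE_07335) by -0.13 between dPoflbC and dCA (adjusted p = 0.492 and 0.306, edgeR). Their 95% intervals for every comparison lay within 1 of 0.

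**Figure D4:**
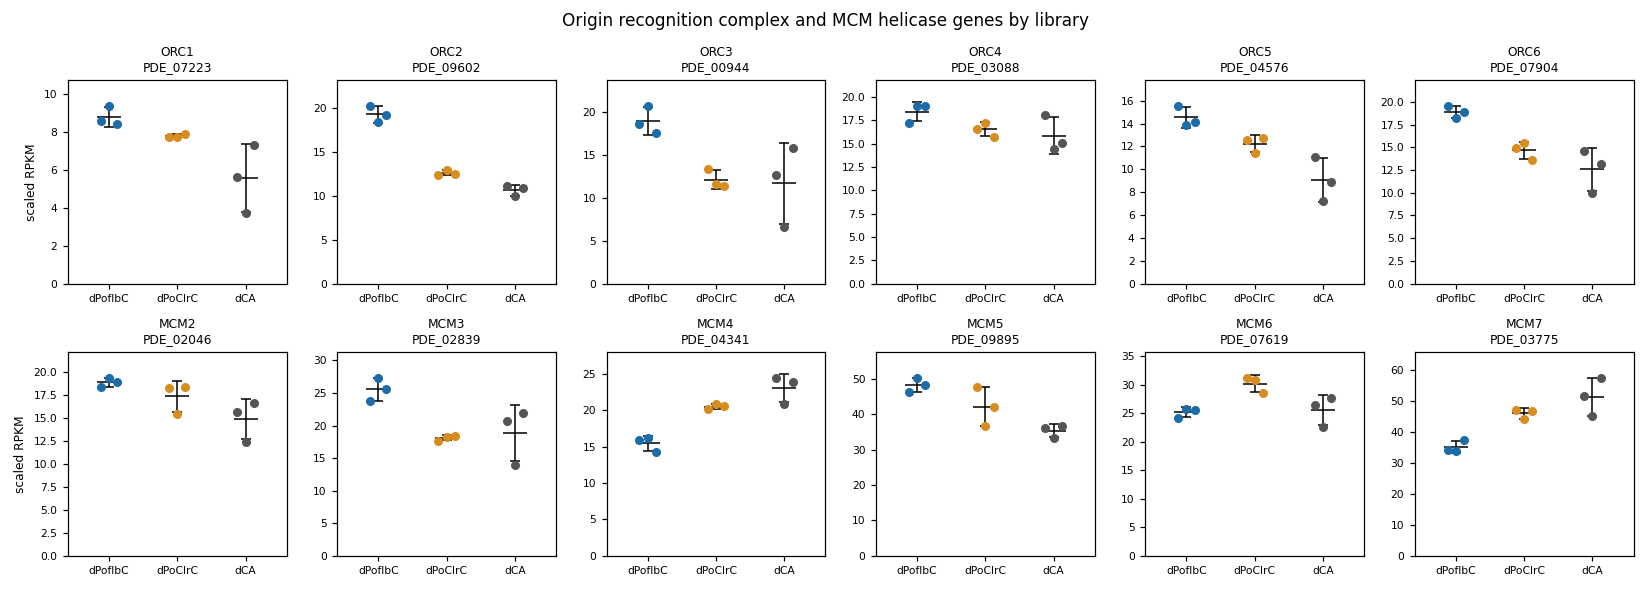
Scaled RPKM of ORC1 to ORC6 and MCM2 to MCM7, with a point for each library, the long bar at the strain mean and the short bars at 1 SD (n = 3). ORC2 is highest in dPoflbC with no overlap, MCM4 and MCM7 are lowest there, and dCA replicate 2 is the low point of dCA in most panels. Without TMM scaling the ORC median was 1.22 in dPoflbC against dCA, where all genes had 0.51. That change raised the values against dCA as a whole, so it could not turn the sign of the ORC genes.

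At the replication fork most genes differed little. The clamp loader, replication factor C, places the sliding clamp on DNA, and its 5 genes had a median log2 fold change of 0.51 in dPoflbC and 0.39 in dPoClrC against dCA, but 0.06 between dPoflbC and dPoClrC. The largest difference was in the subunit 3/5 gene PDE_03222, with 26.3, 30.6 and 28.1 scaled RPKM in dPoflbC, 22.9, 25.5 and 24.6 in dPoClrC, and 17.8, 14.6 and 22.8 in dCA. It gave 0.61 against dCA (adjusted p = 0.00565, edgeR), or 0.50 without dCA replicate 2. The large subunit, subunit 1 (PDE_03220), had means of 15.01, 15.28 and 14.92 scaled RPKM in dPoflbC, dPoClrC and dCA, and a 95% interval of -0.24 to 0.25 for dPoflbC against dCA. The most abundant clamp loader gene, PDE_09965, had 0.17 in dPoflbC and 0.39 in dPoClrC against dCA (adjusted p = 0.293 and 0.0467, edgeR). The single-strand binding genes RF-A1 (PDE_06234) and RF-A2 (PDE_07985) did not pass the test in any comparison.

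Among the polymerase genes 1 of 9 fell. Subunit 4 of polymerase delta (PDE_07912), a small accessory subunit, had 43.7, 35.0 and 43.1 scaled RPKM in dPoflbC, 60.8, 46.5 and 52.5 in dPoClrC, and 80.5, 82.8 and 89.8 in dCA. The strains formed 3 separate ranges with dCA highest. It fell in dPoflbC against dCA by 1.06 on the log2 scale (SE 0.240, adjusted p = 6.46e-05, edgeR), and was lower at a smaller fold in dPoClrC (-0.66, adjusted p = 0.00355). The value in dPoflbC was -0.48 without TMM and -0.96 without dPoflbC replicate 2, both short of a call.

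Subunit 2 of polymerase delta is named for a pair of consecutive locus numbers, PDE_05631 and PDE_05632. The shorter, PDE_05632, of 714 bases, had 57.4, 68.7 and 62.8 scaled RPKM in dPoflbC, 38.1, 39.3 and 37.9 in dPoClrC, and 36.2, 34.0 and 34.9 in dCA. Its 3 dPoflbC libraries lay well above the other 6, and the log2 fold change was 0.84 against dCA (adjusted p = 4.97e-05) and 0.71 against dPoClrC (adjusted p = 0.000177, edgeR). Its neighbour PDE_05631 gave 0.25 and 0.15 (adjusted p = 0.0484 and 0.212, edgeR). Whether the pair is 1 gene divided by the annotation was not tested. The catalytic subunits showed small differences, with -0.01 for polymerase alpha (PDE_03844), 0.01 for polymerase epsilon (PDE_04966) and -0.32 for polymerase delta (PDE_07793, adjusted p = 0.00592, edgeR) in dPoflbC against dCA.

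Condensin, which compacts chromosomes for mitosis, was lower in dPoflbC in each of the 3 members that the search words found, none by enough to be called. Subunit 1 (PDE_01509) had 11.6, 11.9 and 12.4 scaled RPKM in dPoflbC, 20.2, 20.1 and 20.9 in dPoClrC, and 18.0, 19.1 and 21.6 in dCA. All dPoflbC libraries lay below the other 6 here, and likewise in subunits 2 and 3. The log2 fold changes against dCA were -0.71 for subunit 1 (adjusted p = 8.23e-05), -0.65 for subunit 2 (PDE_00898, adjusted p = 0.00014) and -0.54 for subunit 3 (PDE_09925, adjusted p = 0.000775, edgeR). Against dPoClrC they were -0.77, -0.66 and -0.64. Without TMM the median against dCA was -0.07, with 1 of 3 above 0, and all genes had 0.51. Between dPoClrC and dCA the 3 differed by 0.02 to 0.10. The remaining condensin subunits, which the search words did not find, are SMC4 (PDE_01692), at -0.77 against dCA (adjusted p = 0.000123), and SMC2 (PDE_03082), at -0.14, which did not pass the test (adjusted p = 0.414, edgeR).

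Cohesin, which holds sister chromatids together until anaphase, had members on both sides. SCC1 (PDE_03590), the ring subunit cut at anaphase, had 56.1, 55.9 and 52.3 scaled RPKM in dPoflbC, 74.4, 72.7 and 74.9 in dPoClrC, and 75.1, 80.0 and 81.8 in dCA. It was lower in dPoflbC at a smaller fold, by -0.53 against dCA (adjusted p = 0.000316) and -0.44 against dPoClrC (adjusted p = 0.00123, edgeR). The loading factor SCC2 (PDE_06938) was higher, by 0.32 and 0.43 (adjusted p = 0.027 and 0.00636, edgeR). Without TMM the sign of SCC1 turned against dCA, to 0.05 where all genes had 0.51, and it was -0.16 against dPoClrC.

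None of the 12 kinetochore genes was called by edgeR with TMM or by DESeq2. In the 3 comparisons in the order above, 8, 2 and 8 of them had an unadjusted edgeR p under 0.05. In dPoflbC 5 were lower and 2 higher at a smaller fold against dCA, and 5 were lower and 1 higher against dPoClrC. Without TMM Mal2 (PDE_01769, 1.12) and ZW10 (PDE_03686, 1.0) rose in dPoflbC against dCA. The median of the 12 was then 0.34, where all genes had 0.51, and it was -0.23 with TMM. With TMM Fta7 (PDE_03226), an inner kinetochore protein named from fission yeast, came closest to a call. It had 25.7, 18.7 and 19.4 scaled RPKM in dPoflbC, 26.8, 27.5 and 26.3 in dPoClrC, and 37.8, 47.5 and 41.8 in dCA, so that dCA was highest. Its log2 fold change in dPoflbC against dCA was -0.99 (SE 0.243, adjusted p = 0.000199, edgeR), and -0.65 in dPoClrC against dCA (adjusted p = 0.00664).

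The NDC80 complex, which binds spindle microtubules, has 4 members in the module with unlike values. NDC80 itself (PDE_04709) had 19.6, 17.5 and 18.2 scaled RPKM in dPoflbC, 26.3, 23.9 and 30.6 in dPoClrC, and 24.1, 26.1 and 27.4 in dCA, a log2 difference of -0.49 from dCA and -0.55 from dPoClrC (adjusted p = 0.00357 and 0.00191, edgeR). Without TMM the sign of NDC80 turned against dCA, to 0.09 where all genes had 0.51, and it was -0.27 against dPoClrC. With TMM Spc25 (PDE_06823) differed from dPoClrC by -0.64 (adjusted p = 0.000392) and from dCA by -0.23 (adjusted p = 0.0728, edgeR). Nuf2 (PDE_07559) and Spc24 (PDE_08673), the most abundant kinetochore gene at 58.8 to 68.7 scaled RPKM, did not pass the test in any comparison. Mal2 (PDE_01769) was the highest in fold, with 0.54 against dCA (adjusted p = 0.00446, edgeR).

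The widest difference of the module was in CDC20 (PDE_00577), the activator that directs the anaphase-promoting complex at the onset of anaphase. It had 22.8, 26.6 and 27.9 scaled RPKM in dPoflbC, 79.3, 74.9 and 79.5 in dPoClrC, and 65.9, 75.1 and 72.2 in dCA. The highest dPoflbC library was below every other library by a wide margin, and the other 2 strains overlapped. CDC20 fell in dPoflbC by 1.47 on the log2 scale against dCA (SE 0.270, adjusted p = 1.65e-06) and by 1.60 against dPoClrC (SE 0.287, adjusted p = 1.16e-06, edgeR). Without TMM the values were -0.88, short of a call, and -1.33.

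The second activator did not share this. The CDC20-like gene PDE_01945 (the KEGG entry of Cdh1/fizzy-related proteins) had 24.9, 22.4 and 25.2 scaled RPKM in dPoflbC, 15.8, 14.5 and 16.8 in dPoClrC, and 16.4, 22.1 and 18.3 in dCA. Its log2 fold change in dPoflbC was 0.35 against dCA (adjusted p = 0.0307) and 0.62 against dPoClrC (adjusted p = 0.00177, edgeR). Within a library, CDC20 stood at 0.917 to 1.18 times the CDC20-like gene in dPoflbC, at 4.74 to 5.17 times in dPoClrC and at 3.40 to 4.01 times in dCA. The strains did not overlap in this ratio.

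Of the 9 subunits of the anaphase-promoting complex itself, 1 rose. Subunit 10 (PDE_00541), which helps to bind substrates, had 20.0, 21.8 and 21.4 scaled RPKM in dPoflbC, 11.6, 11.8 and 12.3 in dPoClrC, and 8.29, 7.12 and 10.0 in dCA. The 3 strains did not overlap. It rose in dPoflbC by 1.30 against dCA (SE 0.275, adjusted p = 2.1e-05, edgeR) and was higher than dPoClrC at a smaller fold (0.82, adjusted p = 0.000389). Its call against dCA held under every alternative tried, as did that of CDC20 against dPoClrC. Subunit 6 (PDE_09892) was highest in dCA, with 12.3, 13.0 and 12.9 scaled RPKM against 7.74 to 8.11 in dPoflbC and 7.99 to 8.49 in dPoClrC, differences of -0.69 and -0.63 from dCA (adjusted p = 0.000163 and 0.00116, edgeR). The other 7 subunits lay between -0.04 and 0.46 in dPoflbC against dCA.

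The 3 cyclins had unlike values. The mitotic cyclin (PDE_08528), the partner of the kinase that drives entry into mitosis, had 57.4, 59.6 and 61.3 scaled RPKM in dPoflbC, 103.6, 99.7 and 95.2 in dPoClrC, and 87.9, 80.4 and 102.2 in dCA. The dPoflbC libraries lay close together and below all others. It was lower there by -0.60 against dCA (adjusted p = 0.000586) and -0.75 against dPoClrC (adjusted p = 0.000171, edgeR), short of a call. Without TMM it was at -0.04 against dCA, where all genes had 0.51, and at -0.47 against dPoClrC, where all genes had 0.29. Relative to ORC2 in the same library it stood at 2.83 to 3.24 in dPoflbC, 7.59 to 8.34 in dPoClrC and 7.92 to 9.41 in dCA. Cyclin C (PDE_07698) and cyclin H (PDE_09705), which work with kinases that act on the transcription machinery, had 0.36 and 0.40 in dPoflbC against dCA (adjusted p = 0.0368 and 0.0529, edgeR).

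CDC14 (PDE_04922), the phosphatase that in budding yeast reverses mitotic phosphorylation, fell in dPoflbC. It had 25.2, 29.3 and 32.3 scaled RPKM in dPoflbC, 64.3, 53.8 and 63.4 in dPoClrC, and 54.3, 61.7 and 60.6 in dCA. The dPoflbC libraries lay well below the other strains, which overlapped. The log2 fold change was -1.02 against dCA (SE 0.225, adjusted p = 4.11e-05) and -1.07 against dPoClrC (SE 0.230, adjusted p = 3.95e-05, edgeR). Both lie close to the fold required. The first was -0.93 without dPoflbC replicate 1, -0.97 without dCA replicate 2 and -0.98 with DESeq2, and the second was -0.97 without dPoflbC replicate 1. Without TMM the values were further from it, at -0.44 against dCA and -0.79 against dPoClrC, and neither was called.

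The septins CDC11 and CDC12, filament proteins that form rings at septa and branch points, separated dCA from the other strains. CDC11 (PDE_09818) had 303, 343 and 346 scaled RPKM in dPoflbC, 284, 285 and 256 in dPoClrC, and 216, 91.0 and 163 in dCA. The dCA libraries were lowest and the most spread, with replicate 2 far below. CDC11 rose in dPoflbC against dCA by 1.08 (SE 0.338, adjusted p = 0.00362, edgeR), and the value was 0.83 without dCA replicate 2, which ends the call. CDC12 (PDE_09456) had 290, 328 and 328 scaled RPKM in dPoflbC, 294, 319 and 267 in dPoClrC, and 225, 108 and 170 in dCA, with 0.91 against dCA (adjusted p = 0.00485, edgeR), or 0.70 without dCA replicate 2. In dPoClrC against dCA both were higher at a smaller fold, by 0.82 and 0.81 (adjusted p = 0.0264 and 0.0169), and by 0.56 and 0.58 without that library. The level of CDC11 was 0.840 to 1.06 times that of CDC12 in every library.

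**Figure D5:**
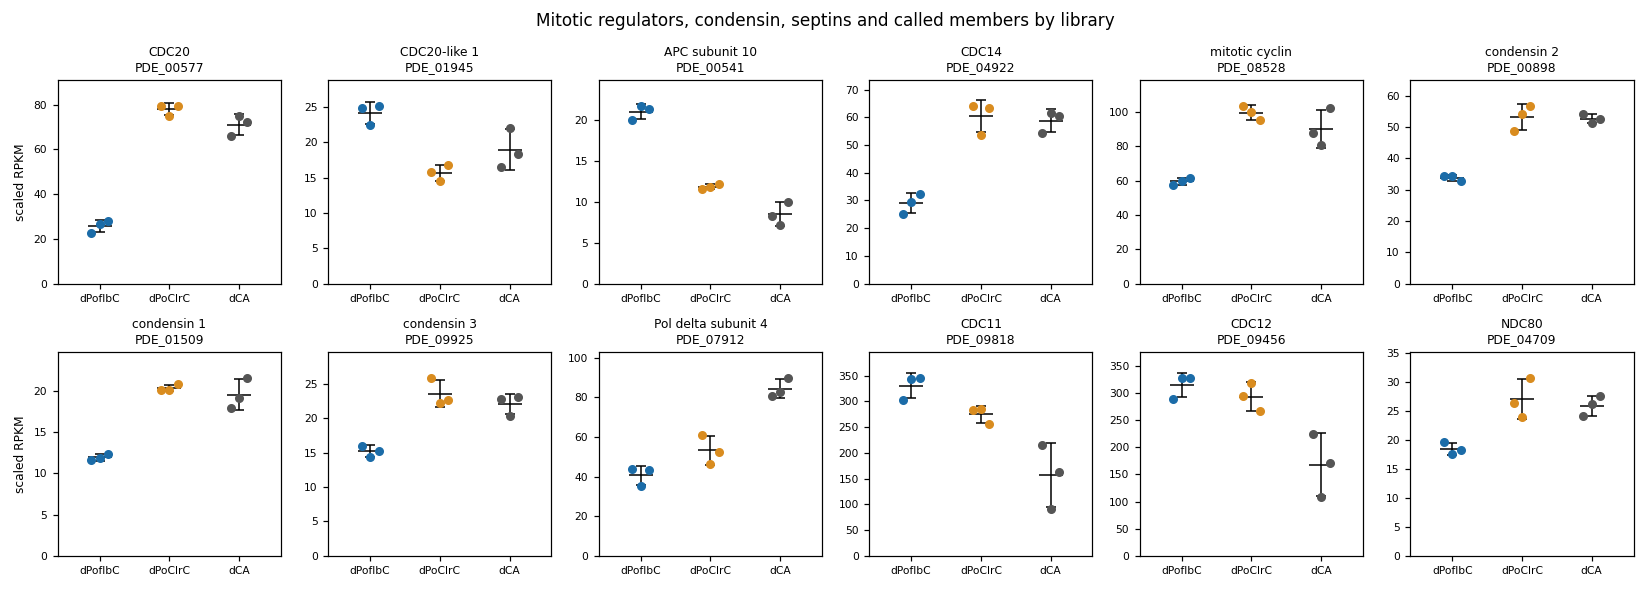
Scaled RPKM of 12 members, with a point for each library, the long bar at the strain mean and the short bars at 1 SD (n = 3). CDC20, CDC14, the mitotic cyclin, NDC80 and the condensin genes are lowest in dPoflbC, while APC subunit 10 and the CDC20-like gene are highest there. Without TMM scaling, condensin as a group was near 0 against dCA, the mitotic cyclin was at -0.04 and NDC80 at 0.09. CDC20 and CDC14 were then below 0 against dCA but not called.

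The other cell division genes did not pass the test. CDC42 (PDE_01175), which sets up polarity at hyphal tips, stood at 176 to 235 scaled RPKM, and its exchange factor CDC24 (PDE_08466) at 27.1 to 42.5. The kinase CDC7 (PDE_01510), which fires licensed origins, the chaperone partner CDC37 (PDE_02480), the nuclease and helicase Dna2 (PDE_08523), and a CDC2-like entry (PDE_03729) likewise gave adjusted p values of 0.0922 or more in every comparison (edgeR). Outside the module by function, ribosome recycling factor (PDE_00986), a protein of translation, rose in dPoflbC against dCA by 1.06 (adjusted p = 7.05e-05, edgeR), and recyclin-1 (PDE_04526) had 0.12 (adjusted p = 0.289).

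The comparison of dPoClrC with dCA held few differences. The 7 members higher in dPoClrC at a smaller fold were both septins, APC subunit 10 (0.48), the clamp loader genes PDE_01039 (0.50) and PDE_09965 (0.39), Spc25 (0.41) and the H4 gene PDE_08392 (0.35). The 3 lower were polymerase delta subunit 4 (-0.66), Fta7 (-0.65) and APC subunit 6 (-0.63). Without dCA replicate 1 both septins were called there (1.12 for CDC11 and 1.07 for CDC12). In 74 of 80 members the log2 fold change was under 0.5 in size, against 65.6% of all genes.

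Genes that work beside the module were taken from 7 lists of KEGG search words. One list held 21 genes for cell cycle kinases, phosphatases, their regulatory subunits and checkpoint proteins. MAD1, MAD2, MAD2B and mitotic-spindle organizing protein 1 are in it and also in the spindle list described after it. None of the 21 rose and 2 fell in dPoflbC against dCA, where 27.1% of all genes tested were called, and 3 fell against dPoClrC, where 22.6% were called. Aurora kinase (PDE_04037), which corrects spindle attachment, averaged 32.9 ± 3.61 scaled RPKM in dPoflbC, 111 ± 4.02 in dPoClrC and 86.7 ± 14.5 in dCA (SD, n = 3), and fell by 1.40 against dCA and 1.77 against dPoClrC (adjusted p = 1.02e-05 and 2.75e-06, edgeR). The M-phase inducer phosphatase (PDE_06982, the Cdc25 family), which activates the mitotic kinase, averaged 5.02 ± 1.15, 11.1 ± 2.15 and 13.5 ± 1.32 scaled RPKM (SD, n = 3) and fell by 1.43 and 1.15 (adjusted p = 0.000141 and 0.000758, edgeR). A checkpoint kinase (PDE_06970) fell against dPoClrC by 1.16 (adjusted p = 7.98e-05, edgeR). Without TMM aurora kinase remained called against dPoClrC alone, and the phosphatase and the checkpoint kinase were not called, all with negative values.

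Among 31 genes for the spindle and motors, dPoflbC against dCA had 3 that rose and 2 that fell, 1 fell in dPoClrC against dCA, and 3 fell in dPoflbC against dPoClrC. The shares of all genes called in these comparisons were 27.1%, 13.0% and 22.6%. In dPoflbC against dCA 8 of the 31 rose and 1 fell without TMM, where 34.9% of all genes were called. Gamma tubulin (PDE_06080), which nucleates microtubules at the spindle pole, averaged 25.4 ± 1.08 scaled RPKM in dPoflbC, 28.8 ± 4.89 in dPoClrC and 84.2 ± 6.83 in dCA (SD, n = 3). It fell by 1.73 in dPoflbC and by 1.54 in dPoClrC against dCA (adjusted p = 2.5e-06 and 4e-05, edgeR), and stayed called without TMM and without dCA replicate 2. Another gamma tubulin entry, PDE_00180, was not called in any comparison by edgeR with TMM. Alpha tubulin (PDE_04579, 1.13), beta tubulin (PDE_00677, 1.01) and a dynein light intermediate chain (PDE_09821, 1.11), which serve the whole microtubule network, rose in dPoflbC against dCA (adjusted p = 0.000642, 0.00137 and 8.6e-05, edgeR), but none was called without dCA replicate 2 (0.96, 0.82 and 0.97). The mitotic kinesins kinesin 11 (PDE_05989, -1.01) and kinesin C1 (PDE_06640, -1.14) fell in dPoflbC against dPoClrC (adjusted p = 2.76e-05 and 6.49e-06, edgeR), and were not called without TMM, the first not by DESeq2 either. The second kinesin C1 entry, PDE_06641, rested on 5 to 17 reads in a library, lies at the next locus number, and fell in dPoflbC against dCA (-1.09, or -0.87 and not called without dCA replicate 2) and against dPoClrC (-1.36).

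Of the 4 septation genes, septin 3/9/12 (PDE_06826) rose in dPoflbC against dCA by 1.05 (adjusted p = 0.00105, edgeR), or 0.86 and not called without dCA replicate 2. The regulator of cytokinesis PRC1 (PDE_07764), a protein of the spindle midzone, averaged 9.13 ± 1.98 scaled RPKM in dPoflbC, 26.6 ± 3.73 in dPoClrC and 19.8 ± 2.56 in dCA (SD, n = 3), and fell by 1.12 against dCA and 1.55 against dPoClrC (adjusted p = 0.000324 and 4.47e-05, edgeR). Without TMM PRC1 stood at -0.55 against dCA and was not called there. Of the 8 nucleotide supply genes, dUTP pyrophosphatase (PDE_03026), which keeps uracil out of DNA, rose in dPoflbC by 1.37 against dCA and 1.67 against dPoClrC (adjusted p = 5.06e-05 and 1.77e-05, edgeR), to 987 ± 70.9 scaled RPKM from 382 ± 49.0 and 309 ± 59.0 (SD, n = 3). The other 7, among them both subunits of ribonucleotide reductase and thymidylate synthase, were not called in any comparison.

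Of 37 DNA repair genes tested, edgeR with TMM called none and DESeq2 called 1 in dPoflbC against dCA, where edgeR called 27.1% of all genes. Of the 37, 21 had an unadjusted p under 0.05, and 10 were higher and 7 lower at a smaller fold. By adjusted p at any fold, 27.1% of all genes were higher and 33.8% lower. Without TMM 5 of the 37 rose and none fell, where 34.9% of all genes were called. An entry for ERCC-4 (PDE_02041), a nuclease subunit of nucleotide excision repair, rose in dPoClrC against dCA by 1.30 and fell in dPoflbC against dPoClrC by 1.46 (adjusted p = 0.00409 and 0.000696, edgeR). It rested on 13 to 84 reads in a library, and the other ERCC-4 entry, PDE_03387, was not called in any comparison by edgeR with TMM. ERCC-8 (PDE_05460) fell in dPoClrC against dCA by 1.02 (adjusted p = 0.00167, edgeR), but was not called by DESeq2 or without dCA replicate 2 (-0.83). Of 24 histone chaperones and modifiers tested, none was called in any comparison by edgeR with TMM or DESeq2. The shares of all genes called by edgeR were 27.1%, 13.0% and 22.6%. An unadjusted edgeR p under 0.05 was reached by 6, 11 and 15 of the 24. Without TMM 2 rose in dPoflbC against dCA and 2 in dPoflbC against dPoClrC, where 34.9% and 24.9% of all genes were called. Among 12 further subunits, a list added with the gene names in view that holds the sliding clamp PCNA, the GINS complex and the SMC proteins, the cohesion protein DCC1 (PDE_07719) rose in dPoflbC against dCA by 1.16 (adjusted p = 0.0224, edgeR), or 0.85 and not called without dCA replicate 2.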

How the data were processed

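The authors deposited one table of read counts in genes (unique reads, per the file headers) and RPKM for the 9 libraries, matched to samples by the codes in the labels. The deposited RPKM equals the reads of a gene over its length (kilobases) and over the library's M reads (1000000) in genes. The deposited coverage in percent of gene length was read but not used for a test. CASAVA 1.8 is the tool in the submitters' processing notes. Which aligner, build and gene models were used is not given in the sources, and no gene sequence or position was used.

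Counts were fitted for all genes with edgeR 4.0.16 in R 4.3.3 (filterByExpr, 8681 of 9786 genes kept, TMM scaling, glmQLFit and glmQLFTest, 1 mean per strain over 9 libraries, two-sided). A call needs a Benjamini-Hochberg adjusted p under 0.05 and an absolute log2 fold change of 1. SEs were derived from the log2 fold change and its p, and 95% intervals from the SE. Alternatives were DESeq2 1.42.0, other scaling, no filter, limma 3.58.1 on log2(RPKM + 0.1, 1 or 5), a replicate block, only the 6 libraries compared, and leaving out each library. The fit was tested on simulated counts.

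The members, roles and lists were chosen with earlier results of these data known, so no set test is given. Values are named for called members, all histones and, per role, the most abundant and the extreme members in dPoflbC against dCA. Of the related lists the called genes are named. Others, such as ORC, MCM, NDC80-complex and CDC20-like genes, were chosen after their values were seen. A count of 0 allows up to 3 reads, and a depth of 6.49 to 7.76 M reads put every member at 27 reads or more.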

Additional observations from a re-analysis of the deposited data

How the results depend on the processing

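The number of members called and the median depended on scaling. In dPoflbC against dCA, 6 members were called and the median log2 fold change was 0.00. Without scaling beyond library size there were 16 and the median was 0.57, and limma on log2(RPKM + 1), (RPKM + 0.1) and (RPKM + 5) gave 14, 18 and 5 members with medians of 0.55, 0.59 and 0.42. Of all genes, 27.1% were called with TMM, and 34.9%, 31.8%, 35.2% and 23.3% in these alternatives in the same order. In dPoClrC against dCA, 0 members became 2 without scaling and 2 with limma at each pseudocount, and the median of 0.04 became 0.34, 0.35, 0.36 and 0.29 in that order. The shares of all genes called were then 15.4%, 13.5%, 15.8% and 9.8%. In dPoflbC against dPoClrC, 3 members became 2 without scaling and 1 with limma on log2(RPKM + 5), and the median of -0.03 became 0.24, 0.24, 0.24 and 0.19. Here 24.9%, 22.6%, 24.6% and 16.7% of all genes were called. These alternatives use no TMM factors, and they moved the median of all genes by a like amount.

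Leaving out each library in turn gave 4 to 8 members called in dPoflbC against dCA (4 without dCA replicate 2, where CDC14 and CDC11 were lost), 0 to 2 in dPoClrC against dCA (2 without dCA replicate 1) and 2 to 3 in dPoflbC against dPoClrC. Over all genes these fits called 25.6% to 28.6%, 10.5% to 15.3% and 21.6% to 23.4%. The medians of the members ran from -0.04 to 0.06, from 0.02 to 0.11 and from -0.06 to -0.02.

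No alternative reversed a call. CDC20, H1, CDC14 and polymerase delta subunit 4 lost their call in dPoflbC against dCA without scaling and with limma, and so did CDC14 and the H4 gene PDE_08392 against dPoClrC. With DESeq2, with its size factors in edgeR, and with only the 6 libraries compared, H1 (-0.995, -0.995 and -0.998) and CDC14 (-0.977, -0.976 and -0.979) fell just short against dCA. The cause was not tested. The replicate numbers did not pair the libraries, with correlations of -0.176 to 0.12 between same-numbered libraries. With a replicate block, a pairing the labels do not state, the members called were again 6, 0 and 3. Keeping the 2 chance matches, an alternative chosen after seeing the data, gave 7 called in dPoflbC against dCA.

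Interval widths did not follow read depth alone, since the SE was derived from the log2 fold change and its p. For CDC20 the SE was 0.270 in dPoflbC against dCA and 0.107 in dPoClrC against dCA. A difference under 1 on the log2 scale was often within reach of the test but outside the fold required.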
